A study of Homo sapiens with 9 samples.

Results

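The genes described here are those whose RNA level lay on the same side of the control on every array from RABL6A knockdown cells. A gene was taken as separated when its 6 knockdown values all lay above, or all lay below, its 3 vector values. Of 12498 named genes measured, 3646 were separated, which is 29.2% of them. In 1877 genes (15.0%) the knockdown values lay above vector, and in 1769 genes (14.2%) they lay below. These values chose the genes, so the separation and the sizes of change that go with it are given as a description, with no test. For reference, limma's test of both shRNAs against vector called 16.6% of the measured genes at an adjusted p under 0.05, 8.54% higher and 8.09% lower.

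The cells were BON-1, an established human line from a pancreatic neuroendocrine tumour, and RNA was measured on 9 one-colour Illumina HumanHT-12 v4 BeadChip arrays. The vector group carried the lentiviral control vector. The shRNA 1 and shRNA 2 groups each carried a different short hairpin RNA against RABL6A, a product of the gene RABL6, which encodes a RAB-like GTPase; the hairpins were in the lentiviral vector pLKO.1. Each group held 3 arrays from separately generated sets of cells, and the labels do not say how far these sets were independent cultures, so p-values measure only the spread between these samples.

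In G1 phase the proteins of the pRB family hold E2F transcription factors inactive, and cyclin-dependent kinases release them when a cell commits to divide. Released E2F factors switch on the genes of DNA replication, and a later programme driven by B-MYB and FOXM1 with the MuvB complex switches on the genes of mitosis. Growth of a cell before it divides needs new ribosomes, whose assembly genes are known targets of the transcription factor MYC.

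The promoters of 7 separated genes are printed here because they belong to the gene groups that recur in the results below. They are RefSeq windows on GRCh38.p14, from 250 bases before to 50 bases after the annotated gene start, 5′ to 3′ on the gene's strand. The first 3 belong to replication genes that lay below vector. Their capitals mark TTTGGCG or TTTCCCG, forms of the E2F motif, on either strand. They are shown as examples of promoters that hold this motif, so its presence in all 3 is not a finding. Of 43 genes of G1/S entry and DNA replication below vector with a promoter window, 20 held either form. Of 10 such genes that overlapped vector, 6 did. E2F2, at chr1:23531184-23531483 on the minus strand, encodes an E2F factor. CDC45, at chr22:19479670-19479969 on the plus strand, encodes a component of the replicative helicase. UHRF1, at chr19:4909251-4909550 on the plus strand, encodes a protein that helps to copy DNA methylation to the new strand.
E2F2: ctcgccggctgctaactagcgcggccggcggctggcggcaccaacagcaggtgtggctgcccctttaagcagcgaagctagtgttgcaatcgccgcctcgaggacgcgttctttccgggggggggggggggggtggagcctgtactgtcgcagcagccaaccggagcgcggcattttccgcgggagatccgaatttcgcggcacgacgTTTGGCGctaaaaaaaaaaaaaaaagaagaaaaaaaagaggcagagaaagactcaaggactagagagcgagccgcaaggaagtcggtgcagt
CDC45: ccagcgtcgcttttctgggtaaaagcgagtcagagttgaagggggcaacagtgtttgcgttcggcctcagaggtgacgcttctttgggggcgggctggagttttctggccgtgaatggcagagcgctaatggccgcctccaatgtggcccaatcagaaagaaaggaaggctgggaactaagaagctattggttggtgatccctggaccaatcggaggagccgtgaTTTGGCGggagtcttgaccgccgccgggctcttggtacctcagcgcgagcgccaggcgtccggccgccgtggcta
UHRF1: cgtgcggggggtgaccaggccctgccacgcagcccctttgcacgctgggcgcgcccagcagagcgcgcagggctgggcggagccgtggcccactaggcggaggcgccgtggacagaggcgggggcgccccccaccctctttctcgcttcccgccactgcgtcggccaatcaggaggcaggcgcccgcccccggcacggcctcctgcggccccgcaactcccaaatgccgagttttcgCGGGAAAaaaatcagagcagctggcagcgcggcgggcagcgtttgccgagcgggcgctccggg
KIFC1, at chr6:33391573-33391872 on the plus strand, encodes a mitotic kinesin. Its capitals mark TTTGAA, the core of the cell cycle homology region, and CCAAT, the NF-Y box, on either strand. UTP4, at chr16:69132399-69132698 on the plus strand, encodes a factor that processes ribosomal RNA. Its capitals mark CACGTG, the E-box that MYC can bind. These promoters were chosen after the values were seen.
KIFC1: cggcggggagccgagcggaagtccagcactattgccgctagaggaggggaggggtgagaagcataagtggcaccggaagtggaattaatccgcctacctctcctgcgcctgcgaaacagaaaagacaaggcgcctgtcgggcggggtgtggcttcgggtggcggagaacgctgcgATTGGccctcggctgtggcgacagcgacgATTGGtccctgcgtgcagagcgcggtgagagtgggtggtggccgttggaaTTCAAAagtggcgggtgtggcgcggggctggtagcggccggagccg
UTP4: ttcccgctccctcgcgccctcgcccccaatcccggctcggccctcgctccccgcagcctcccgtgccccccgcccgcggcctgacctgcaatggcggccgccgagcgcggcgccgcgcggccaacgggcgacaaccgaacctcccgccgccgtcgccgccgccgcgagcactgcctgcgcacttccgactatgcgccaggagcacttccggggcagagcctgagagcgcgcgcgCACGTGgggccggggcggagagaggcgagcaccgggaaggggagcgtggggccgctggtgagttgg
Both remaining promoters belong to genes far above vector. NT5E, at chr6:85449833-85450132 on the plus strand, encodes an ectonucleotidase that produces extracellular adenosine, and held none of the 8 motifs searched. C11orf54, at chr11:93741422-93741721 on the plus strand, held CCGGAAG, an ETS-type motif, marked in capitals on the opposite strand.
NT5E: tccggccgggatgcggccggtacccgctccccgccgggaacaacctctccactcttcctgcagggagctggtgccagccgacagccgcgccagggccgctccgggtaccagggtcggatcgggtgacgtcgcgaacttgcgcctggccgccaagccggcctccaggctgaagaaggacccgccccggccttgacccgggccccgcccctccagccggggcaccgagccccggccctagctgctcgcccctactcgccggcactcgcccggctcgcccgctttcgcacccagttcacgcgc
C11orf54: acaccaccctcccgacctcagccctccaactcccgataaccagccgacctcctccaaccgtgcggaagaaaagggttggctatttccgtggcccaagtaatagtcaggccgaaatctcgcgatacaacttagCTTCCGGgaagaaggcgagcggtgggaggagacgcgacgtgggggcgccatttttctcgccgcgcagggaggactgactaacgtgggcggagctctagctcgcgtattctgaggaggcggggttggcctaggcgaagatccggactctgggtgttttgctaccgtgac

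RABL6 itself was among the separated genes. Here the gap is the distance between the nearest knockdown array and the nearest vector array. RABL6 read 7.57, 7.73 and 7.82 on the log2 scale on the vector arrays, 6.01, 5.98 and 5.22 on the shRNA 1 arrays and 5.67, 5.69 and 5.69 on the shRNA 2 arrays. The groups were 1.55 apart at their nearest arrays.

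Depth of signal was similar on the 9 arrays, with a median raw signal of 119 to 129 and 41.4% to 44.9% of probes detected at p under 0.05. Correlation of levels across genes was 0.995 for each pair of vector arrays. Knockdown arrays did not group by shRNA, because shRNA 1 replicate 2 correlated at 0.994 with shRNA 2 replicate 1 but at 0.933 with shRNA 1 replicate 1. Likewise shRNA 2 replicate 2 correlated at 0.995 with shRNA 1 replicate 1 but at 0.933 with shRNA 2 replicate 1. Whether labels were exchanged was not tested. The separation rule treats the 6 knockdown arrays alike, so it does not depend on which shRNA each carried. Without these 2 arrays, 2099 genes (16.8%) lay above vector and 1975 (15.8%) below, including all 3646 found on 9 arrays, as must be the case with fewer arrays.

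Most separated genes differed from vector by a modest amount. The mean change, both shRNAs minus vector, had a median of 0.61 on the log2 scale among genes above vector and -0.74 among genes below. The change was under 1 in 2799 of the 3646 genes (76.8%). Separation was found in 2.43% of genes with a change under 0.25, in 28.2% between 0.25 and 0.5, in 64.0% between 0.5 and 1, in 88.2% between 1 and 2, and in 100% of the 52 genes beyond 2.

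**Figure D1:**
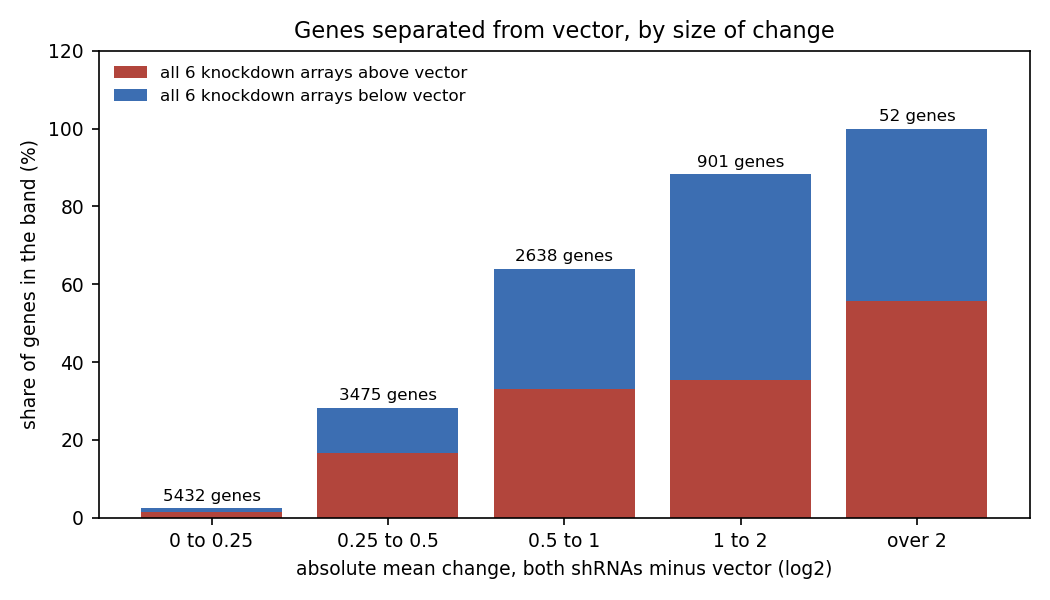
Share of measured genes in each band of absolute mean change (log2, both shRNAs minus vector) with all 6 knockdown arrays above vector (red) or below it (blue), with the number of genes over each bar. The share goes from 2.43% in the lowest band to 100% in the highest, and the 0.5 to 1 band holds 873 genes above and 815 below.

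Many genes were separated narrowly. The median gap was 0.20 above vector and 0.23 below, and the widest was 2.03 and 2.00. A gap of at least 0.25 was found in 782 genes above and 821 below, and a gap of at least 1 in 68 and 51. Just inside the rule lay CACNA2D3, a calcium channel subunit, 0.00030 above vector, and SLC39A8, a metal ion transporter, 0.0011 below. RNASEK, a ribonuclease gene, and FAHD2A were also just inside, with gaps of 0.00061 and 0.0014. Just outside lay ANTXR2, an anthrax toxin receptor, FAM86FP, a pseudogene, and DPAGT1, which starts N-glycan synthesis, each with a knockdown array level with a vector array, and USP7, a deubiquitinase, with a gap of -0.00026.

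Dimmer genes were separated less often. With genes put in order of mean level and cut into 4 bins of equal size, 12.9%, 31.5%, 36.7% and 35.6% were separated, from the dimmest bin to the brightest. A second probe of the same gene bore on the rule only where one existed. Of 597 genes above vector with another kept probe, 323 (54.1%) had another probe separated the same way, and of 524 genes below, 315 (60.1%) did. Among genes that were not separated, 305 of 2237 (13.6%) had another probe that was. Probes with no gene name were separated less often than named genes, 7.02% above and 9.68% below.

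Scaling moved the balance between the directions. Quantile normalization put 51.5% of separated genes above vector, and centring each array on its median put 31.9% there, with 1164 genes above and 2484 below. The median change of all genes was 0.03 with the first and -0.08 with the second. Of the genes above vector 61.8% stayed above with median centring, and of those below 99.9% stayed below. Gene groups in which this changed the direction are named as such in what follows.

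The arrays did not stand equally far from vector. Over the genes above vector, the median distance from the vector mean was 0.66, 0.61 and 0.54 on shRNA 1 replicates 1, 2 and 3, and 0.63, 0.65 and 0.47 on shRNA 2 replicates 1, 2 and 3. Over the genes below vector it was -0.82, -0.69 and -0.62, and -0.72, -0.79 and -0.49. The array shRNA 2 replicate 3 was the nearest to vector in 35.5% of genes above and 44.4% of genes below. On that array alone the rule failed for another 307 genes that would have lain above and 274 below.

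The rule did not use the difference between the shRNAs, and limma found none past its threshold in any gene. Each labelled group held an array that resembled the other group, which widens the spread within groups and draws their means together. This test, and the intervals given for single genes below, therefore cannot show that the shRNAs acted alike. Called between shRNA 2 and shRNA 1 were 0% of the 12498 genes, with a smallest adjusted p of 0.988. An unadjusted p under 0.05 was found in 96 genes (0.768%), of which 5 lay above vector and 4 below. The median 95% interval of this difference reached 0.40 to each side among genes above vector and 0.47 among genes below, so smaller differences could not be seen. On 7 arrays limma called 5151 of all genes between the shRNAs (41.2%) and 1089 of the 3646 separated genes (29.9%), where leaving out those arrays alone narrows the groups.

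The widest gaps above vector, with the 10 genes picked by size set apart, belonged to genes of unlike function. Those picked by size changed by 2.47 to 3.21 above vector and, in the other direction, by 2.14 to 2.80, and 5 and 4 of them were also among the 10 widest gaps. E2F2, CDC45 and NT5E, whose promoters are printed above, were among those picked by size. C11orf54, whose promoter is printed above, read 9.01, 8.97 and 8.99 on the vector arrays, 11.57, 11.37 and 11.33 on the shRNA 1 arrays and 11.28, 11.38 and 10.95 on the shRNA 2 arrays. Every knockdown array was thus at least 1.94 above every vector array, and the mean change was 2.32 (SE 0.13, 6 arrays against 3). YOD1, a deubiquitinase of protein quality control, read 8.25, 8.20 and 8.10 with vector, 10.40, 10.53 and 10.36 on the shRNA 1 arrays and 10.37, 10.53 and 9.95 on the shRNA 2 arrays. Only shRNA 2 replicate 3 stood below 10, and the gap was 1.69.

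HTR3A, a subunit of the serotonin-gated ion channel, read 6.58, 6.67 and 6.42 with vector and 8.24 to 9.21 on the knockdown arrays, with a median of 8.71. SPTSSB, a small subunit of the enzyme that starts sphingolipid synthesis, read 9.34, 9.34 and 9.36 with vector and 10.92 to 11.48 with knockdown. KRT80, an epithelial keratin, lay at 8.36 to 8.44 with vector and 9.94 to 10.61 with knockdown. In these 3 genes the knockdown arrays spread over less than the gap. NRCAM, a neuronal cell adhesion molecule, did so too, with a range of 1.00 against a gap of 1.49. PLCG2, a phospholipase C, had a range of 1.57 against a gap of 1.51. For PLCG2 shRNA 1 replicate 1 and shRNA 2 replicate 2 read 9.90 and 9.78, and the other knockdown arrays 8.33 to 9.01, against 6.62 to 6.82 with vector. For NRCAM the same arrays read 10.84 and 10.91, and the others 9.91 to 10.27, against 8.33 to 8.42.

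Below vector, the widest gaps included genes of the endocrine cell. SLC18A1, the vesicular monoamine transporter that loads amines into secretory granules, read 9.32, 9.10 and 8.90 with vector, 7.27, 6.71 and 7.08 on the shRNA 1 arrays and 6.74, 7.13 and 7.33 on the shRNA 2 arrays. The groups lay 1.57 apart, and shRNA 2 differed from shRNA 1 by 0.05 (shRNA 2 minus shRNA 1; 95% interval from -0.43 to 0.53). NKX2-2, a transcription factor needed to form islet cells, read 10.89, 11.18 and 11.04 with vector and 8.30 to 9.45 with knockdown, with a median of 9.03. Its lowest arrays were shRNA 2 replicate 1 and shRNA 1 replicate 2.

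CNIH2, an auxiliary protein of AMPA receptors, was the most even of these genes. It read 7.17, 7.16 and 7.19 with vector, 5.42, 5.50 and 5.38 on the shRNA 1 arrays and 5.31, 5.42 and 5.66 on the shRNA 2 arrays. CAMK2N2, an inhibitor of the kinase CaMKII, read 7.62 to 7.63 with vector and 5.14 to 6.26 with knockdown. RAVER1, an RNA-binding co-regulator of splicing, lay at 7.73 to 7.94 against 5.59 to 6.25. Both genes spread further over the knockdown arrays than over the vector arrays. PEX19, a chaperone that carries membrane proteins to peroxisomes, lay at 9.09 to 9.14 with vector against 6.47 to 7.67 with knockdown. SSBP4, a single-stranded DNA binding protein gene, lay at 8.93 to 9.07 against 6.87 to 7.56.

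**Figure D2:**
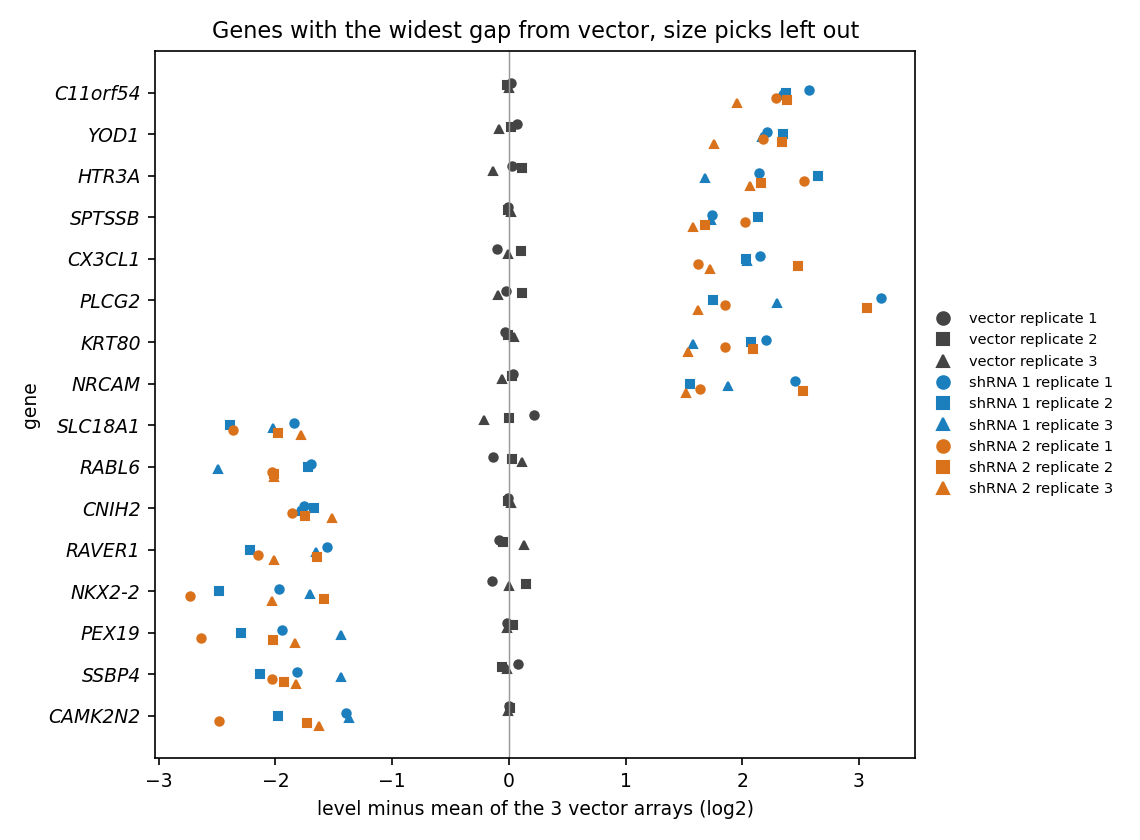
Level on each of the 9 arrays minus the mean of the 3 vector arrays (log2) for the 8 genes with the widest gap in each direction, the size picks left out, with vector in grey, shRNA 1 in blue, shRNA 2 in orange and the replicate number as the symbol. All knockdown points lie apart from the vector points, with C11orf54 at a gap of 1.94 and SLC18A1 at 1.57.

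Some genes changed by nearly the same amount on all 6 knockdown arrays. Evenness was taken as the range over the knockdown arrays divided by the size of the change, among genes with a change of at least 1. ANGPTL4, a secreted inhibitor of lipoprotein lipase, read 8.29, 8.21 and 8.30 with vector, 9.45, 9.57 and 9.54 on the shRNA 1 arrays and 9.64, 9.58 and 9.50 on the shRNA 2 arrays. Its knockdown mean of 9.55 ± 0.07 (SD, n = 6) stood 1.28 above the vector mean of 8.27 ± 0.05 (SD, n = 3). OSTM1, a subunit partner of the lysosomal chloride transporter, read 5.86 to 6.27 with vector and 7.35 to 7.55 with knockdown. CIDEB, a lipid droplet and lipoprotein protein of liver cells, lay at 7.56 to 7.85 against 9.23 to 9.50. TSPAN12, a tetraspanin of Norrin signalling, lay at 8.87 to 9.13 against 10.32 to 10.57. DIPK1A and MYO1G, a membrane-linked myosin, followed with mean changes of 1.22 and 1.75.

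The 6 even genes below vector included 2 nutrient carriers and 1 sterol enzyme. SLC7A5, the large neutral amino acid transporter, read 10.00, 9.79 and 9.93 with vector, 8.28, 8.11 and 8.49 on the shRNA 1 arrays and 8.38, 8.42 and 8.40 on the shRNA 2 arrays. The 3 shRNA 2 arrays lay close together, and shRNA 2 differed from shRNA 1 by 0.11 (shRNA 2 minus shRNA 1; 95% interval from -0.21 to 0.43). DHCR7, the last enzyme of cholesterol synthesis, lay at 9.59 to 9.97 with vector and 7.75 to 8.26 with knockdown. SLC19A1, the folate carrier, was detected on only 2 of 6 knockdown arrays. It read 4.78 to 4.98 on the 6 knockdown arrays against 5.82 to 6.28 with vector. Values under detection cannot show that its fall was even. PTP4A3, a phosphatase, TRIB2, a pseudokinase, and ZBED4 were below vector by 1.28, 1.06 and 1.03.

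Other genes passed the rule although the knockdown arrays were far apart. The range over the knockdown arrays exceeded the mean change in 870 genes above vector (46.4%) and 963 below (54.4%), and was smaller than the gap in 298 (15.9%) and 203 (11.5%). COX6A1, a subunit of cytochrome c oxidase, read 11.80, 11.76 and 11.76 with vector. It read 11.72 on shRNA 1 replicates 1 and 3 and 11.74 on shRNA 2 replicate 2, but 7.54 on shRNA 1 replicate 2 and 7.43 and 8.23 on shRNA 2 replicates 1 and 3. On 3 arrays it was thus level with vector to within 0.1, and its gap was 0.02. With the replicate number removed as a block it was no longer separated.

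The same division of the arrays recurred in TAGLN2, an actin-binding protein, at 10.45, 10.58 and 10.57 on the arrays near vector and 8.50, 8.36 and 9.03 on the others, against 10.64 to 10.94 with vector. DDC, which makes serotonin and dopamine from their precursors, divided the arrays in the other way. It read 12.77, 12.08 and 12.81 on shRNA 1 replicates 1 and 3 and shRNA 2 replicate 2, and 10.60, 10.65 and 10.63 on the others, against 10.18 to 10.21 with vector. COPZ1, a coat protein subunit of Golgi vesicles, was lowest on the same 3 arrays at 6.41, 7.11 and 6.60, and read 8.22, 8.32 and 8.80 on the others. TEAD2, a transcription factor of the Hippo pathway, was also lowest on these, and lay at 9.75 to 9.87 with vector and 7.02 to 9.10 with knockdown. PMAIP1, the p53-induced BH3-only protein NOXA, was highest on shRNA 1 replicate 2 and shRNA 2 replicates 1 and 3.

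**Figure D3:**
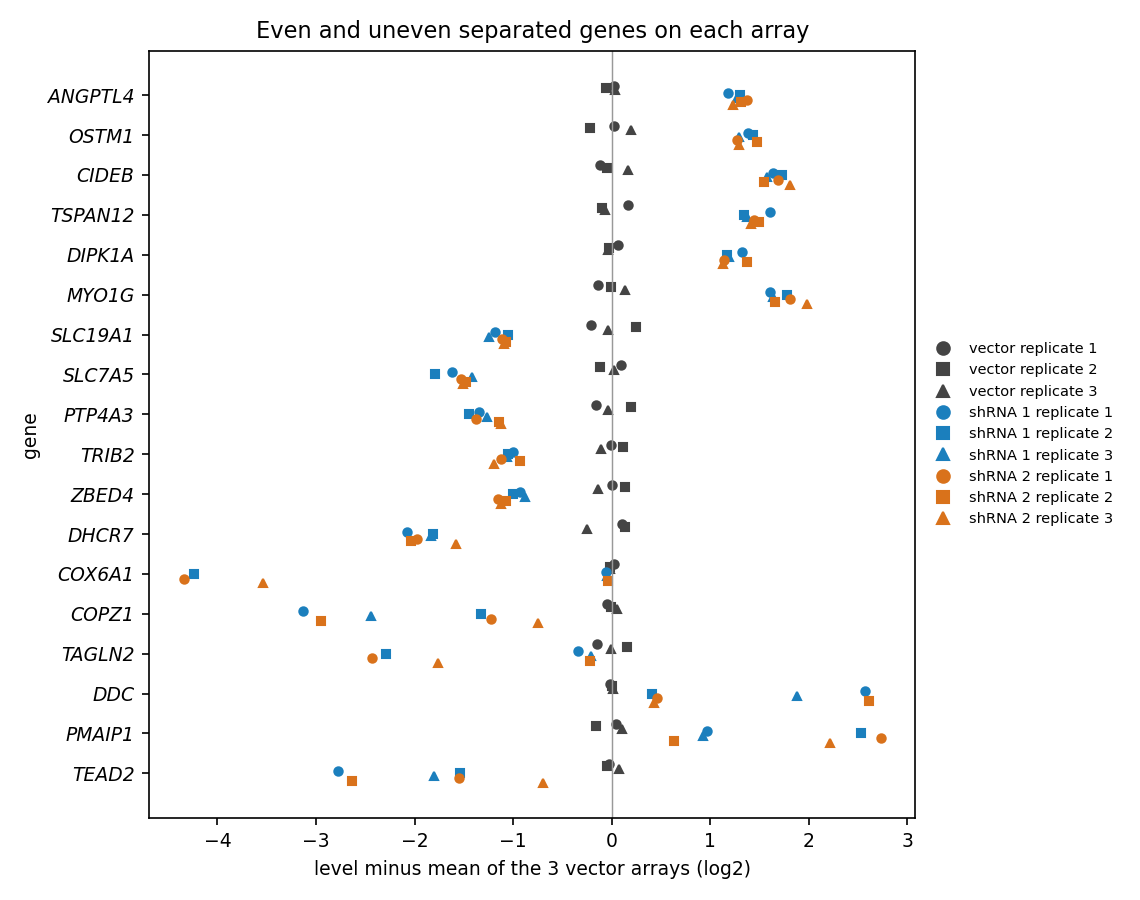
Level on each array minus the mean of the vector arrays (log2) for the 6 most even separated genes in each direction, followed by the 6 pathway genes with the widest knockdown range, with colours for groups and symbols for replicate numbers. Before the vector mean is subtracted, the knockdown levels of ANGPTL4 lie between 9.45 and 9.64, whereas those of COX6A1 spread from 7.43 to 11.74.

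Some genes were measurable in only one of the groups. Probes were kept when detected on 3 or more of the 9 arrays, so such genes passed only through the group where they are high. Any 3 of the 6 knockdown arrays sufficed, but all 3 vector arrays were needed, so counts in the opposite directions cannot be compared. Of the genes above vector 83 were not detected on any vector array, and 39 of these were detected on all 6 knockdown arrays. A gene detected on no vector array has only a lower bound of its change, taken as the knockdown mean over, on each vector array, the higher of the gene's signal and the lowest signal of a detected probe. VSIR, the immune checkpoint receptor VISTA, was at least 4.56-fold higher with knockdown and read 6.17 to 8.19 there. CX3CL1, the chemokine fractalkine, was at least 3.64-fold higher, with 6.47 to 7.33 on the knockdown arrays. LGALS2, a galectin, was at least 3.51-fold higher and SIRT4, a mitochondrial sirtuin, at least 2.61-fold.

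In the other direction 12 genes were detected on all 3 vector arrays and on none of the 6 knockdown arrays. All of these were dim, so the bounds were small. TRAIP, a ubiquitin ligase of the replication fork, was at least 1.41-fold lower with knockdown, and CDH3, the cell adhesion protein P-cadherin, at least 1.31-fold. SNORA23, a small nucleolar RNA, was at least 1.29-fold lower and CLSPN, the checkpoint adaptor claspin, at least 1.22-fold.

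Genes of cell division lay below vector more than those of any other list examined here. Of 62 tested genes of G1/S entry and DNA replication, 49 (79.0%) lay below vector and 1 above, against 14.2% and 15.0% of all genes. Their median change was -1.10, against 0.03 over all genes. E2F2 and CDC45 were among the genes picked by size. E2F2 read 10.91, 10.81 and 10.72 with vector and 8.03 to 9.24 with knockdown, and CDC45 10.31 to 10.49 against 6.57 to 9.08. UHRF1 read 11.08, 11.04 and 11.07 with vector, 8.23, 9.64 and 9.49 on the shRNA 1 arrays and 9.56, 8.22 and 10.00 on the shRNA 2 arrays. POLD1, the catalytic subunit of DNA polymerase delta, lay at 7.65 to 7.81 with vector and 4.76 to 6.66 with knockdown. The gene above vector was CCND3, a D-type cyclin of G1, at 10.91 to 10.97 against 11.03 to 11.53, and it was not separated with median centring. In bulk RNA, fewer cells in S phase or mitosis and less RNA per cell cannot be told apart.

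Of 73 genes of G2/M and mitosis, 54 (74.0%) lay below vector and 0 above, with a median of -1.22. KIFC1, a kinesin that gathers spindle poles, read 9.89, 9.66 and 9.64 with vector, 6.99, 8.15 and 8.35 on the shRNA 1 arrays and 7.69, 7.07 and 8.36 on the shRNA 2 arrays. GTSE1, a microtubule-associated protein of G2 and mitosis, lay at 8.02 to 8.10 against 5.58 to 6.98. Members of this list were uneven. In the 54 separated genes the range over the knockdown arrays had a median of 1.36 times the mean change, and in none was it smaller than the gap.

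Both DNA repair lists had all their separated genes below vector. Of 27 genes of homologous recombination, the Fanconi pathway and the checkpoint, 19 (70.4%) lay below vector and 0 above, with a median of -1.17. FANCG, a Fanconi core protein, read 9.74, 9.79 and 9.94 with vector and 7.51 to 8.51 with knockdown. RAD54L, a motor protein of strand exchange, lay at 7.85 to 7.91 against 5.74 to 6.90. Of 27 genes of base, mismatch and nucleotide excision repair, 11 (40.7%) lay below and 0 above, with a median of -0.17. LIG3, a DNA ligase of base excision repair, was among the more even at 7.13 to 7.27 against 5.99 to 6.31, and NEIL3, a glycosylase of replicating cells, among the less even at 7.11 to 7.40 against 4.78 to 6.40.

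Of 25 genes of histones and chromatin assembly, 7 (28.0%) lay below and 1 above, with H2AX, the histone of the DNA damage signal, at -1.36 and SUPT16H, a histone chaperone of FACT, at -0.94. H2BC5, the gene above vector at 0.33, was separated neither with median centring nor with other probe rules, and near-identical histone genes can share probe signal. Of 40 chromatin modifiers, 7 (17.5%) lay below, near the 14.2% of all genes, and 2 (5%) above, fewer than the 15.0% of all genes. With median centring 13 lay below. EZH2, the methyltransferase of the Polycomb complex, lay at 9.06 to 9.18 with vector and 6.81 to 8.12 with knockdown, and the deacetylase HDAC1 was at -0.84. The acetyltransferase KAT2B, at 9.09 to 9.23 against 10.04 to 10.35, and the DNA demethylase TET1, at 6.14 to 6.31 against 6.95 to 7.57, lay above.

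Cell cycle inhibitors and pRB family genes were split, with 5 of 19 (26.3%) above and 9 (47.4%) below (3 and 9 with median centring). Over all genes these shares were 15.0% and 14.2%. CDKN1B, the inhibitor p27, read 9.91, 10.02 and 10.13 with vector, 10.94, 10.44 and 11.00 on the shRNA 1 arrays and 10.52, 10.74 and 10.68 on the shRNA 2 arrays. SKP2, part of the ubiquitin ligase that marks p27 for breakdown, read 11.56, 11.73 and 11.67 with vector and 10.17 to 10.93 with knockdown. The ranges of the knockdown arrays were thus apart from vector in opposite directions for the inhibitor and its ligase subunit. CABLES1, a partner of cyclin-dependent kinases, was at 0.80 but was not separated with median centring. FBXO5, an inhibitor of the anaphase-promoting complex, was at -1.46.

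Of 48 tested genes of ribosome biogenesis, 29 (60.4%) lay below vector and 0 above, with a median change of -0.40. Averaged over the list, shRNA 1 replicates 1, 2 and 3 lay at -0.44, -0.41 and -0.37 from the vector mean, and shRNA 2 replicates 1, 2 and 3 at -0.44, -0.40 and -0.36. The means of the G2/M list on these arrays, in the same order, were -2.03, -0.97, -0.86, -1.04, -1.98 and -0.41. Among the 6 arrays the ribosome biogenesis mean thus varied little while the G2/M mean varied several-fold; the difference in spread was not tested. Gene by gene the list was not more even than G1/S, with a median range over the knockdown arrays of 1.04 times the mean change in its separated genes, against 1.00 for G1/S and 1.36 for G2/M.

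RRS1, a ribosome assembly factor, read 8.60, 8.58 and 8.45 with vector, 7.57, 7.22 and 7.49 on the shRNA 1 arrays and 7.35, 7.43 and 7.59 on the shRNA 2 arrays. Its shRNA 2 minus shRNA 1 difference was 0.03 with a 95% interval from -0.30 to 0.35. UTP4 read 11.28, 11.30 and 11.27 with vector, 10.40, 10.23 and 10.53 on the shRNA 1 arrays and 10.21, 10.43 and 10.52 on the shRNA 2 arrays. Both genes stood apart from vector by more than the whole range of the knockdown arrays. Of 47 cytosolic ribosomal proteins, 9 (19.1%) lay below and 1 (2.13%) above, against 14.2% and 15.0% of all genes. RPS14 was at -0.50 and RPS6 at -0.38. RPL27, above at 0.16, was at -0.03 with median centring, with which 25 of the 47 lay below.

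**Figure D4:**
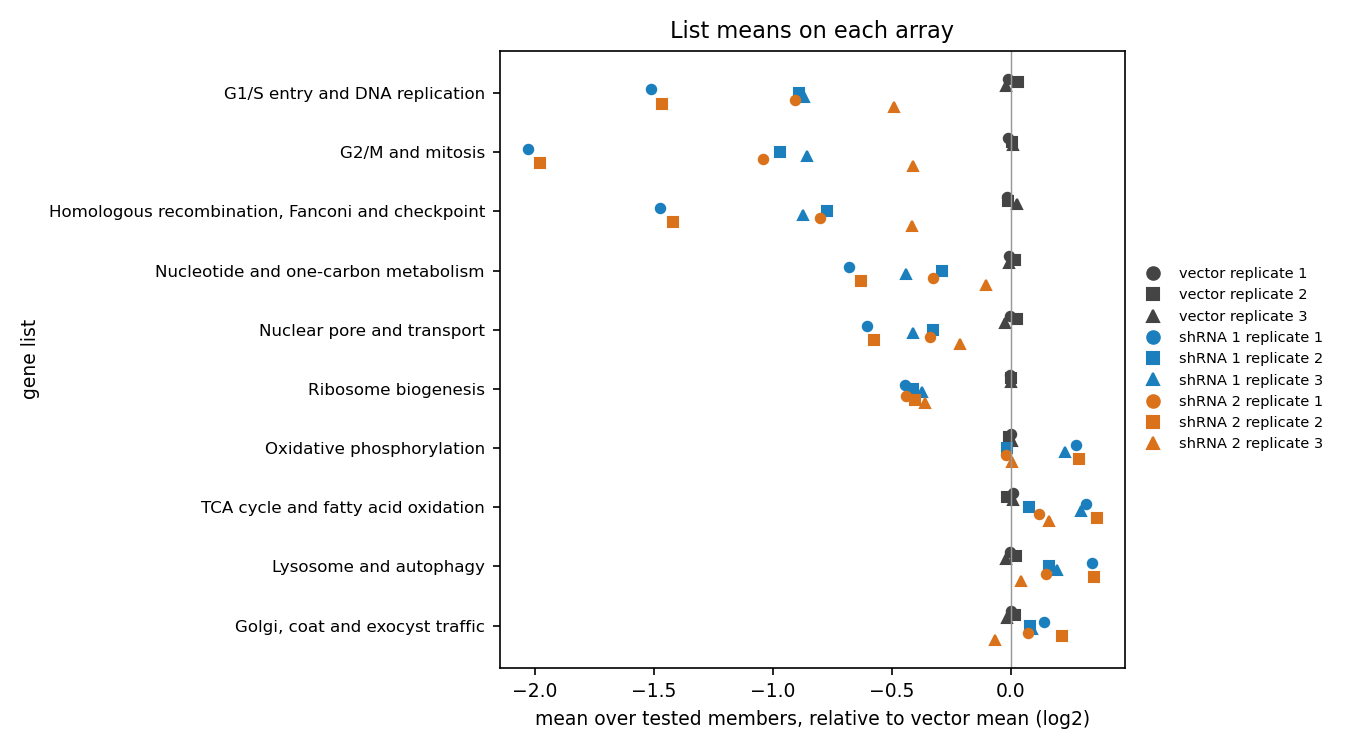
Mean over the tested genes of 10 lists on each array, relative to the vector mean (log2), with vector in grey, shRNA 1 in blue, shRNA 2 in orange and the replicate number as the symbol. Ribosome biogenesis keeps its 6 knockdown points between -0.44 and -0.36, while G2/M and mitosis spreads from -2.03 to -0.41.

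MYC network and target genes were below vector in 9 of 26 cases (34.6%) and above in 2 (7.69%), against 14.2% and 15.0% of all genes. With median centring 12 lay below and 1 above. SRM, the spermidine synthase, read 10.11, 10.17 and 10.29 with vector and 7.86 to 8.81 with knockdown. MXD3, a MAX partner linked to proliferation, lay at 6.50 to 6.84 against 4.57 to 5.59 and was detected on 2 of 6 knockdown arrays. MXD4, a MAX partner that opposes MYC, lay above vector at 8.03 to 8.24 against 9.19 to 9.81. MNT, another such partner, was at 0.41 and was not separated with median centring.

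Nuclear transport, nucleotide supply and splicing lists also had most of their separated genes below vector. Of 49 nuclear pore and transport genes, 22 (44.9%) lay below and 3 above. KPNA6, an importin alpha, read 10.48, 10.49 and 10.55 with vector and 8.43 to 9.30 with knockdown, and RCC1, the exchange factor of RAN, 9.32 to 9.52 against 7.38 to 8.45. TNPO3 and KPNA3, also import receptors, lay above vector by 0.48 and 0.40. Of 36 genes of nucleotide and one-carbon metabolism, 17 (47.2%) lay below and 3 above. NME1, a nucleoside diphosphate kinase, lay at 12.63 to 12.65 against 11.43 to 11.89, and MTHFD1L, a mitochondrial folate enzyme, at 8.15 to 8.23 against 7.37 to 7.55. IMPDH1, of guanine nucleotide synthesis, and PSAT1, of serine synthesis, lay above by 0.38 and 0.35, but neither did with median centring.

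Of 56 spliceosome and mRNA processing genes, 16 (28.6%) lay below vector and 2 above, and with median centring 29 lay below and 1 above. PRPF4, of the U4/U6 particle, was at -1.55 and SF3A3, of the U2 particle, at -1.04. CPSF2, of mRNA 3′ end cleavage, was at 0.41, and PRPF3 at 0.54, the latter not separated with median centring or cyclic loess. Of 37 proteasome genes, 4 lay above and 6 below, shares of 10.8% and 16.2% that were near the background, but with median centring 1 lay above and 13 below. Separated members included the activator PSME3 at -1.79, the catalytic-core subunits PSMB2 at -0.75 and PSMB10 at 0.55, and PSMB6 at 0.26, which was not separated with median centring.

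Of 43 translation factors, 3 (6.98%) lay above vector and 7 (16.3%) below, against 15.0% and 14.2% of all genes. With median centring 1 lay above and 14 below. EIF2S1, the alpha subunit of the initiation factor eIF2, stood out above vector, at 7.05, 6.89 and 6.65 with vector, 9.82, 8.76 and 9.18 on the shRNA 1 arrays and 9.07, 9.52 and 8.41 on the shRNA 2 arrays. EIF4A1, an RNA helicase of initiation, lay below at 13.15 to 13.27 against 12.27 to 12.61, and PABPC1, the poly(A)-binding protein, was at -0.69. EIF2B5 was separated by 0.01 only, at 0.13, and its change had the opposite sign with median centring. Of 35 aminoacyl-tRNA synthetases, 9 (25.7%) lay below and 2 (5.71%) above (11 and 1 with median centring). FARSA was at -1.59, AARS2 at -0.88, NARS1 at 0.37 and EPRS1 at 0.31 (EPRS1 not separated with median centring). Of 67 mitochondrial ribosome genes, 11 (16.4%) lay below and 6 (8.96%) above (17 and 1 with median centring). MRPS26 was at -0.82, MRPL38 at -0.41, MRPL33 at 0.40 and MRPS6 at 0.59 (MRPS6 not separated with median centring).

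Oxidative phosphorylation had most of its separated genes above vector, by small amounts. Of 55 tested genes, 18 (32.7%) lay above and 2 below, against 15.0% and 14.2% of all genes, with a median of 0.19. SDHD, a membrane subunit of complex II, read 9.99, 9.96 and 9.92 with vector, 10.39, 10.46 and 10.42 on the shRNA 1 arrays and 10.43, 10.40 and 10.53 on the shRNA 2 arrays. NDUFA8, of complex I, lay at 11.35 to 11.53 against 11.85 to 12.50. NDUFB7, also of complex I, lay below at 10.53 to 10.65 against 9.73 to 10.09, and COX6A1 was the other gene below. With median centring 9 lay above and 4 below. The list mean was 0.27 and 0.23 on shRNA 1 replicates 1 and 3 and 0.29 on shRNA 2 replicate 2, but between -0.02 and 0.01 on the other knockdown arrays. Several other lists also had means that differed between knockdown arrays, some with opposite signs.

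Of 34 genes of the TCA cycle and fatty acid oxidation, 9 (26.5%) lay above vector and 0 below, with a median of 0.26 (7 and 2 with median centring). SLC25A20, the carnitine carrier of mitochondria, read 7.22, 7.58 and 7.51 with vector and 8.09 to 8.72 with knockdown. ETFDH, which passes electrons from fatty acid oxidation to ubiquinone, lay at 8.55 to 8.67 against 9.12 to 10.19. Glycolysis and hypoxia genes lay above in 12 of 36 cases (33.3%) and below in 3 (8.33%), against 15.0% and 14.2% of all genes. With median centring 8 lay above and 5 below. INSIG2, which holds back sterol synthesis, was at 1.36, beside ANGPTL4 at 1.28. EPAS1, the factor HIF-2 alpha, was at -1.09 and PFKFB3, a glycolytic regulator, at -0.62.

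Of 31 genes of cholesterol and fatty acid synthesis, 7 (22.6%) lay below vector and 4 (12.9%) above, against 14.2% and 15.0% of all genes. With median centring 11 lay below and 3 above. The list mean was 0.03, -0.39 and 0.13 on the shRNA 1 arrays and -0.45, 0.02 and -0.34 on the shRNA 2 arrays. DHCR7 and MSMO1, enzymes of the late pathway, were at -1.89 and -0.96. PMVK, of the mevalonate steps, and ACSL4, which activates arachidonic acid, were at 0.69 and 0.50. Amino acid transport and ATF4 response genes were also near the background, with 6 of 33 (18.2%) above and 7 (21.2%) below (4 and 9 with median centring). SLC38A2, a small neutral amino acid carrier, lay above at 10.37 to 10.65 against 11.32 to 11.74, and VLDLR, a lipoprotein receptor, was at 0.90. SLC7A1, the cationic amino acid carrier, lay below with SLC7A5, at 9.87 to 10.02 against 7.82 to 9.10.

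Lysosome and autophagy genes lay above vector in 19 of 54 cases (35.2%) and below in 5, with a median of 0.21 (10 and 5 with median centring). SMPD1, acid sphingomyelinase, read 7.18, 7.26 and 7.28 with vector, 8.17, 8.33 and 8.13 on the shRNA 1 arrays and 8.35, 8.23 and 8.10 on the shRNA 2 arrays. CTSL, the protease cathepsin L, lay at 10.19 to 10.29 against 11.04 to 11.35. MCOLN1, the calcium channel of lysosomes, lay below at 7.99 to 8.16 against 6.66 to 7.34, and GLA, alpha-galactosidase, was at -0.77. In its separated genes above vector the median range was 0.76 times the change; how this differed from other lists was not tested.

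RAB GTPases and their regulators lay above vector in 13 of 51 cases (25.5%) and below in 5 (9.80%), against 15.0% and 14.2% of all genes. With median centring the counts were 9 and 8. RAB5A, of early endosomes, read 9.81, 9.77 and 9.80 with vector and 10.22 to 10.49 with knockdown, and RABEP1, its effector, was at 0.74. RAB5B, a second gene of the RAB5 family, lay below at 10.51 to 10.59 against 8.14 to 9.80, and RAB22A was at -1.54. Members of one subfamily thus lay on both sides of vector. Golgi, coat and exocyst genes lay above in 12 of 49 cases (24.5%) and below in 4 (8.16%). This balance was the other way with median centring, at 4 and 7. SEC23A, a subunit of the COPII coat, lay at 7.13 to 7.34 against 8.37 to 9.19, while SEC24C, of the same coat, was at -0.54. GOLGA2, a tether of Golgi cisternae, was at 1.07.

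Folding genes of the endoplasmic reticulum were even in number, with 8 of 42 (19.0%) above and 8 (19.0%) below (2 and 13 with median centring). Over all genes the shares were 15.0% and 14.2%. SEL1L and DERL1, which carry misfolded proteins to degradation, were at 1.11 and 0.70. PDIA4, a disulfide isomerase, and CANX, the chaperone calnexin, were at -0.99 and -1.10.

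**Figure D5:**
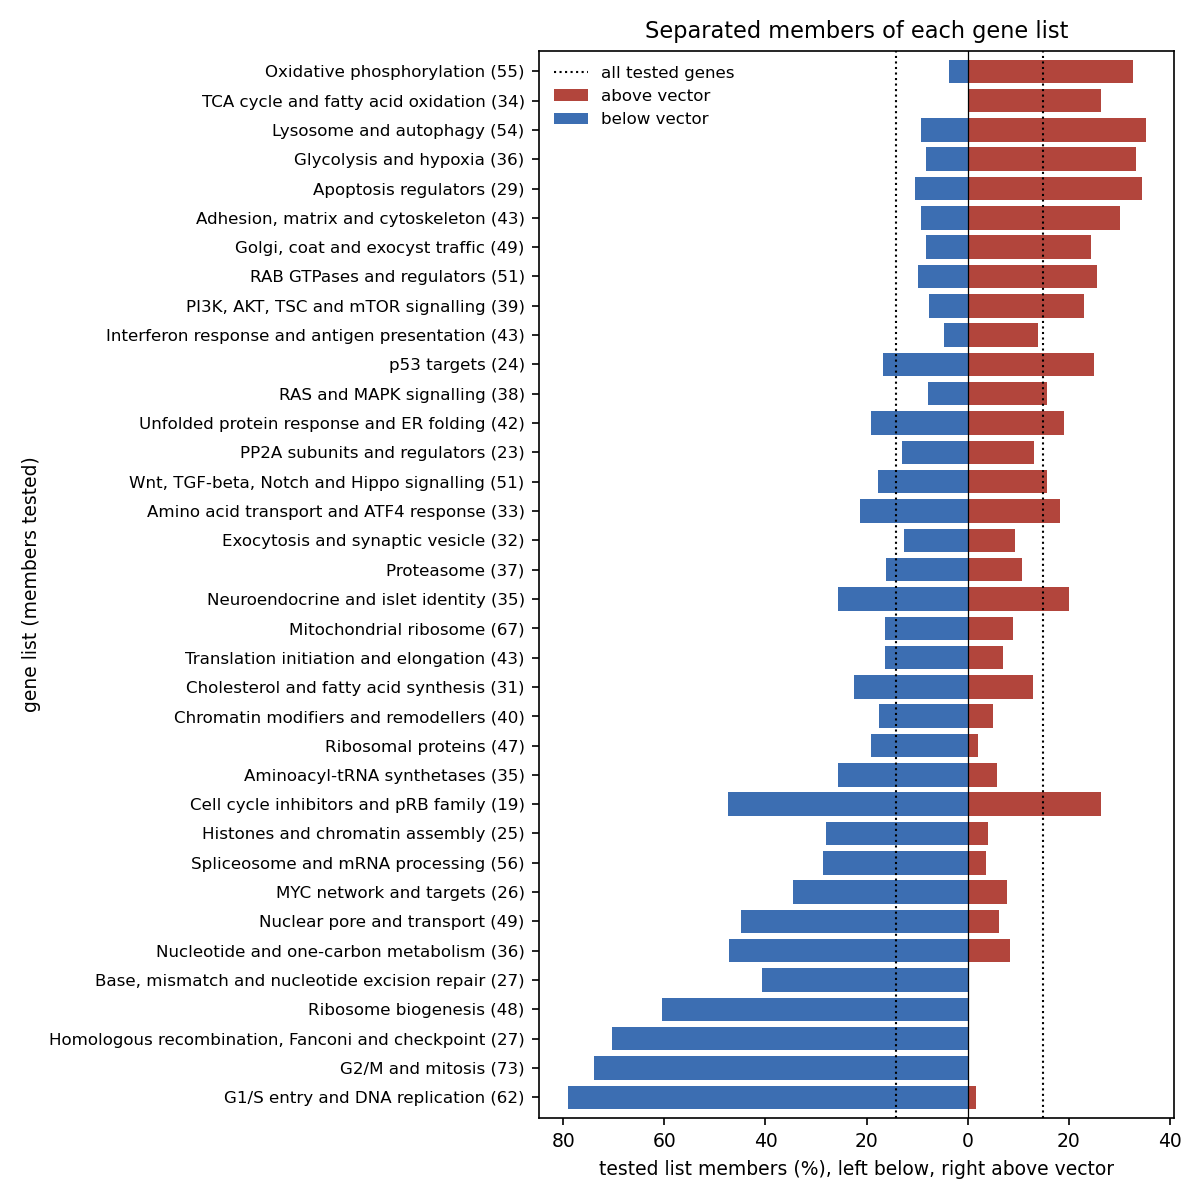
Share of the tested members of each gene list (number in brackets) with all 6 knockdown arrays below vector (blue, to the left) or above it (red, to the right), with dotted lines at the 14.2% and 15.0% of all genes. Cell division lists reach furthest to the left, with 79.0% for G1/S, and lysosome and autophagy furthest to the right with 35.2%, counts that fall to 10 of 54 with median centring.

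Survival genes were mixed. Of 29 apoptosis regulators, 10 (34.5%) lay above vector and 3 (10.3%) below, against 15.0% and 14.2% of all genes. With median centring 5 lay above and 4 below. CASP2, a caspase, read 11.12, 11.15 and 11.10 with vector and 8.84 to 9.96 with knockdown. BCL2, the anti-apoptotic protein, lay at 6.83 to 7.05 against 5.04 to 6.58. BIK, a BH3-only protein, was detected on 0 of 3 vector arrays and was at least 2.08-fold higher with knockdown. Of 24 p53 targets, 6 (25%) lay above and 4 (16.7%) below. TP53I3 was at 0.57, the nuclease gene AEN at -0.83 and the repair gene XPC at -0.47. The list mean was 0.30 to 0.36 on shRNA 1 replicate 2 and shRNA 2 replicates 1 and 3. It was between -0.002 and 0.03 on the other knockdown arrays. TP53I3 was even, at 9.62 to 9.75 on the knockdown arrays against 9.09 to 9.17.

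Signalling lists were closer to the background. Of 39 PI3K, AKT, TSC and mTOR genes, 9 (23.1%) lay above and 3 (7.69%) below, against 15.0% and 14.2% of all genes. With median centring 4 lay above and 6 below. AKT1, the kinase, read 11.22, 11.14 and 11.18 with vector and 9.06 to 10.16 with knockdown, while FOXO4, a transcription factor that AKT inhibits, lay above at 6.98 to 7.26 against 7.85 to 9.15. RRAGD, a GTPase that recruits mTORC1 to lysosomes, was at 1.02 and NPRL3, of the complex that restrains it, at -0.83. Of 23 PP2A subunits and regulators, 3 (13.0%) lay above and 3 (13.0%) below, a balance lost with median centring at 2 and 6. PPP2R5A was at 0.45, PPP2CB at 0.46, PPP2R1B at -0.52 and CIP2A, a PP2A inhibitor, at -1.10.

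Of 38 RAS and MAPK genes, 6 (15.8%) lay above and 3 (7.89%) below, against 15.0% and 14.2% of all genes. The mean of this list was -0.33, 0.33 and -0.15 on shRNA 1 replicates 1, 2 and 3. On shRNA 2 replicates 1, 2 and 3 it was 0.27, -0.33 and 0.22, so the list did not move 1 way on all knockdown arrays. ERBB3, a receptor of the EGFR family, read 9.82, 9.82 and 9.84 with vector and 10.52 to 10.83 with knockdown, and RPS6KA3, a kinase downstream of ERK, was at 0.77. ETV4, an ETS factor, and RPS6KA1, a further such kinase, were at -0.77 and -0.54. Of 51 Wnt, TGF-beta, Notch and Hippo genes, 8 (15.7%) lay above and 9 (17.6%) below (7 and 12 with median centring). Their list mean was -0.16, 0.24 and -0.14 on the shRNA 1 arrays and 0.27, -0.19 and 0.28 on the shRNA 2 arrays. SMAD7 and SMAD6, the inhibitory SMADs, both lay above, SMAD7 at 5.26 to 6.16 against 7.21 to 8.12 and SMAD6 at 5.84 to 5.96 against 6.79 to 8.50. FZD1, a Wnt receptor, was at -0.75, beside TEAD2.

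Of 35 neuroendocrine and islet genes, 7 (20%) lay above and 9 (25.7%) below, against 15.0% and 14.2% of all genes. With median centring 5 lay above and 11 below. The list mean was 0.19, -0.19 and 0.01 on shRNA 1 replicates 1, 2 and 3. On shRNA 2 replicates 1, 2 and 3 it was -0.22, 0.20 and -0.17. SSTR2, the somatostatin receptor, was at 1.08, with 6.75 to 6.98 against 7.55 to 8.40. Of 32 exocytosis and synaptic vesicle genes, 3 (9.38%) lay above and 4 (12.5%) below (2 and 6 with median centring). SYT11, a synaptotagmin, read 6.42 to 8.13 with knockdown, at least 1.10 above vector, and NAPG, of SNARE recycling, was at 0.69. The complexins CPLX1 and CPLX2, which clamp vesicle fusion, were at -1.15 and -0.89.

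Of 43 adhesion, matrix and cytoskeleton genes, 13 (30.2%) lay above and 4 (9.30%) below, against 15.0% and 14.2% of all genes. With median centring 9 lay above and 6 below. KRT8, a keratin of simple epithelia, read 12.92, 12.95 and 12.85 with vector and 13.50 to 14.13 with knockdown, and MMP1, a collagenase, was at 1.51. VIM, the mesenchymal filament vimentin, lay below at 12.63 to 12.70 against 10.83 to 12.32. Of 43 interferon response and antigen presentation genes, 6 (14.0%) lay above and 2 (4.65%) below, but 0 and 3 with median centring. Their list mean was 0.38, -0.35 and 0.57 on the shRNA 1 arrays and -0.37, 0.37 and -0.03 on the shRNA 2 arrays. IRF1 and PARP9, above by 0.78 and 0.50, were not separated with median centring, while IRF3 and OAS3, at -1.47 and -1.38, were.

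Defining markers of the labelled cell type were present. Of 11 neuroendocrine markers 10 were detected on all 9 arrays and 1, SLC18A2, on none. SCG2, INSM1 and SLC18A1 lay below vector, ENO2 and DDC above, and the other tested markers overlapped vector. Sums of linear level were taken over the tested markers of each cell type only. For the 10 tested neuroendocrine markers the sum was 67692 to 69228 with vector and 51710 to 70016 with knockdown. Of 5 epithelial markers 4 were detected on all arrays, and 3 of them, KRT8, KRT19 and CDH1, lay above vector, with sums of 26799 to 29347 against 36704 to 42332. Leukocyte markers with no detection included PTPRC, CD3D and CD3E. The 4 tested leukocyte markers, CD14, CD68, LYZ and CD79A, summed to 639 to 728 with vector and 804 to 2124 with knockdown. The gene of that list above vector was CD79A, of the B cell receptor, at 1.97. Among endothelial markers KDR lay above at 1.00 while PECAM1 and CDH5 were not detected, with sums of 181 to 184 against 169 to 323. Among fibroblast markers S100A4 lay below at -0.16 while COL3A1, LUM and THY1 were not detected, with sums of 18985 to 19465 against 14966 to 18758.

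The motifs of the printed promoters were counted in the windows of all genes. Promoters were matched for 10045 of 12498 genes (80.4%), 1533 of those above vector and 1445 of those below. Motifs were counted on both strands, and TTTGGCG and TTTCCCG were counted together. One or both were in 9.05% of all matched promoters, 7.63% of those above vector and 12.7% of those below. In G1/S genes below vector the share was 46.5% (20 of 43), and in the 10 G1/S genes that overlapped vector it was 60%, or 6 of 10. TTTGAA was in 9.98% of all promoters, in 33 of 46 G2/M genes below vector (71.7%) and in 9 of 15 that overlapped vector. CCAAT was in 36.9% of all promoters, 34 of those 46 (73.9%) and 9 of those 15. CACGTG was in 10.1% of all promoters, 9 of 23 ribosome biogenesis genes below vector (39.1%) and 5 of 18 that overlapped.

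Over all separated genes the remaining motifs gave shares near those of all promoters, but not in every list. CCGGAAG was in 18.4% of all promoters, 16.3% above vector and 19.6% below. It was in 10 of 23 ribosome biogenesis genes below vector (43.5%) and 9 of 18 that overlapped vector (50%), and in 15 of 46 G2/M genes below (32.6%) and 1 of 15 that overlapped. GCGCATG, the site of NRF1, was in 748 of 10045, 106 of 1533 and 116 of 1445. CATTCC, the site of TEAD factors, was in 1060, 161 and 143 of them, and in 7 of 23 ribosome biogenesis genes below vector (30.4%) and 1 of 18 that overlapped. Median GC content of the windows was 65% above vector, 65.3% below and 65% over all. These matches describe the windows only.

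A few genes had probes on both sides of vector. Among genes above vector 5 had another probe separated below, and among genes below 3 had one above. MAP3K20, a stress-activated kinase, had a probe at 9.29 to 9.39 with vector and 9.74 to 10.62 with knockdown, and another at 5.72 to 6.20 against 4.69 to 5.14. PPP4R4, a phosphatase regulator, had 2 probes above vector by 1.27 and 1 below by -0.38, the latter with a gap of 0.02. For CFAP276, of cilia, the probes differed by -1.71 and 0.55 from vector, and for RORA, a nuclear receptor, by 0.55 and -0.97. Which transcript forms these probes read was not tested, and the direction of these genes depends on the probe.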

How the data were processed

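The 9 arrays gave, per the file headers, a deposited signal intensity and a detection p-value for each of 47231 probes, with no background subtraction and no normalization. Of the software only GenomeStudio is known, from the submitters' processing notes, without its version. The authors' value table, which holds linear intensity made in a way the sources used here do not state, was tried in its place with 16 added before log2.

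From the deposited intensity, background was corrected with nec (offset 16) in limma 3.58.1 (R 4.3.3), followed by quantile normalization and log2; this scale understates the changes of dim genes. Kept were 22011 probes detected (p under 0.05) on 3 or more arrays, 16744 with 1 gene and 5267 with no gene name. The platform annotation gave 1 gene for 30108 probes, several for 8 and none for 17115, and 30069 matched RefSeq by gene identifier. For 3358 genes with several kept probes the one with the highest mean was used. The number of arrays limits the precision.

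Groups came from the sample titles. Then limma (lmFit, eBayes) estimated the 3 group means in 1 model of 12498 genes, with Benjamini-Hochberg adjustment over all of them. It gave mean changes with standard errors, and the test of shRNA 2 minus shRNA 1. The main fit did not pair arrays by replicate number. Deviations from group means correlated between 0.03 and 0.15 for same-numbered vector and knockdown arrays. For same-numbered arrays of the shRNA groups these correlations were -0.89 to -0.24. Each shRNA group held an array resembling the other group, so these values cannot show whether sets of 1 number share an effect. The steps were tested on simulated data.

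Named genes were RABL6, the 8 widest gaps and 6 most even changes in each direction, up to 4 detected in one group only, up to 2 in each direction per list by gap, those at the threshold, and up to 4 with opposed probes. The 10 size picks in each direction were set apart, except E2F2, CDC45 and NT5E, whose promoters are printed. No gene was called between shRNAs, so none was named for that. The 39 lists held 1448 tested genes, of which 576 were separated. The members, lists and rules were chosen with earlier results of these data known. The 8 motifs named above were searched on both strands of the promoter windows. Alternatives changed the background step, normalization, probe filter and rule, arrays, fit settings, gap and replicate block. No probe or shRNA sequence was used here.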

Additional observations from a re-analysis of the deposited data

Results flagged for a closer look

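Among 195 named genes the 6 knockdown arrays were searched for a single array far from the other 5, with Dixon's ratio above 0.625. Of these genes 5 met this, and chance alone marks about 1 in 20. PSMB6, a proteasome subunit, read 12.864 on shRNA 2 replicate 1 against 12.60 to 12.69 on the others. YOD1, a deubiquitinase, read 9.9476 on shRNA 2 replicate 3 against 10.36 to 10.53, and SEC23A, of the COPII coat, read 8.373 on the same array against 8.91 to 9.19. TRAIP, a ubiquitin ligase, read 4.913 on shRNA 1 replicate 3 against 4.52 to 4.64, where it was not detected on any knockdown array. USP7, a deubiquitinase just outside the rule, read 9.1414 on shRNA 1 replicate 3 against 8.84 to 8.92, and this array alone kept it from lying below vector.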

How the results depend on the processing

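Without each array in turn, 1959 to 2197 genes lay above vector and 1835 to 2043 below. Called for both shRNAs against vector were 489 to 2582, and 0 were called between shRNAs (0 of the separated genes). Without vector replicates 1, 2 and 3 the calls against vector were 550, 489 and 509, and the cause of these lower counts was not tested. A gap of at least 0.25 left 782 above and 821 below, and one of at least 0.5 left 313 and 357. Median centring left 1164 above and 2484 below, with 2045 called. On 7 arrays 5152 genes were called against vector and 5151 between shRNAs, 1200 of them separated on those arrays; array weights gave 5587, 4346 and 887. Removing the replicate number as a block gave 2319 above, 2135 below and 1105 called. In deviations from group means, each vector array correlated best with knockdown arrays of its own number, though only at 0.03 to 0.15. By the same measure the knockdown arrays did not correlate best with arrays of their own number. The mean change had the opposite sign for EIF2B5 (-0.0049) and RPL27 (-0.0269) with median centring, RORA (-0.97) with the probe of largest interquartile range and MAP3K20 (-0.0065) with the mean of probes; the cause was not tested. The other alternatives for these counts stayed within 1.5 times the reported counts, with 0 called between shRNAs in each. Of 187 separated named genes 172 stayed separated with median centring, 185 with cyclic loess, 184 with the other probe, 182 with the mean of probes and 184 with the block. The signal limits dim genes: 83 genes above vector were detected on no vector array and 12 below on no knockdown array, so their changes have only a bound, and 12.9% of the dimmest of 4 bins of genes were separated.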
